A study of Mus musculus with 12 samples.

Results

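The gut homing receptors and T cell integrins are 10 genes, chosen by symbol: Ccr9, Gpr15, Gpr55, Itga4, Itgb7, Itgae, Itgb1, Itgal, Itga2 and Cd44. All 10 were found among the 19938 genes measured, each on 1 transcript cluster (1 summarised set of probes) of a whole-transcript array. RNA came from cells described as CD8+CD28low regulatory T cells of C57Bl/6 mice, with 3 arrays in each of 4 groups. Activated KO cells were AIRE ko cells and activated WT cells were wt cells, both kept for 96 h in culture with allogenic antigen-presenting cells (APC) and an antibody to CD3. Native KO cells (AIRE ko) and native WT cells (wt) were measured as freshly isolated. No treatment other than the culture is named, and age, sex, the promoter or design of the Aire allele, the number of mice behind an array, the sort and the removal of APC after culture are nowhere stated. Titles call the arrays biological replicates, and p-values measure the spread between these arrays. The number of arrays limits the precision.

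Lymphocytes enter the gut wall through surface molecules that read local signals. The chemokine receptor CCR9 follows CCL25 from the small intestine, and GPR15 steers T cells to the colon. Integrins are pairs of an alpha and a beta chain: the alpha4 chain (Itga4) joins beta7 (Itgb7) to bind MAdCAM on gut vessels or beta1 (Itgb1) to bind VCAM and fibronectin, and the alphaE chain (Itgae, CD103) joins beta7 to hold cells at E-cadherin of the epithelium. Retinoic acid induces CCR9 and alpha4beta7 on T cells, and TGF-beta induces CD103. The series is about Aire loss and colitis, and the comparisons here ask how these molecules stood in KO against WT cells and before and after activation.

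Levels are deposited log2 values, so a difference of 1 is a doubling. A gene was taken as at background on an array at or under the 95th percentile of 1015 olfactory receptor genes there, which lay between 6.13 and 6.73 on 11 arrays and at 7.31 on activated KO array 3. That array also had the narrowest spread of all values (interquartile range 2.19, against 2.45 to 2.89 on the others). The CD8 T cell markers Cd3e, Cd3d, Cd3g, Cd8a, Cd8b1, Cd2 and Cd5 were above background on every array (7 of 7 measured). Their mean ran from 10.68 to 11.84 in activated KO, 11.49 to 11.89 in activated WT, 11.89 to 12.05 in native KO and 11.88 to 12.02 in native WT cells, lowest on activated KO array 3. Cd28, the receptor whose low surface display names the cells, lay between 9.98 and 11.97 on all 12 arrays, so its RNA was well above background.

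With activation, Ccr9, Itga4 and Itgae fell in both genotypes, and Itgb7 fell in KO cells. Gpr55 rose in both genotypes, and Itgb1 and Itga2 rose in WT cells. Activation here stands for the 96 h culture, the APC and the antibody together, against freshly isolated cells. No group was cultured without stimulation, so the separate parts of these were not tested. A gene is written as rising or falling where limma gave an adjusted p under 0.05 (Benjamini-Hochberg over 19938 genes). In KO cells 1 of 10 members was called higher and 4 of 10 lower, where 8.72% of all genes were called higher and 11.4% lower. In WT cells 3 of 10 were called higher and 3 of 10 lower, against 9.72% and 10.9% of all genes. These shares include genes at background throughout, whereas all 10 members lay above background on some array. The share among genes above background is not given. The levels of activated and native arrays did not overlap for 6 of 10 members in KO cells (2 higher, 4 lower), beside 30.9% of all genes (13.8% higher, 17.0% lower), and for 9 of 10 in WT cells (4 higher, 5 lower), beside 41.0% (17.5% higher, 23.4% lower). The median difference of the 10 was -0.08 in KO and -0.07 in WT cells, beside 0.02 and -0.02 over all genes. Of the genes called, 43.5% were higher in KO and 47.2% in WT cells; after quantile normalization these shares were 55.3% and 58.6%. Without activated KO array 3, the count in KO cells was 8 of 10 (4 higher, 4 lower). Of all 19938 genes, 4891 were then called (2668 higher, 2223 lower), against 4002 with all arrays. In WT cells it ran from 4 of 10 without native WT array 3 to 8 of 10 without activated KO array 2 or 3, arrays that enter only through the shared spread. The genes called in WT cells were then 3144, 4492 and 5875, against 4107 with all arrays.

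**Figure D1:**
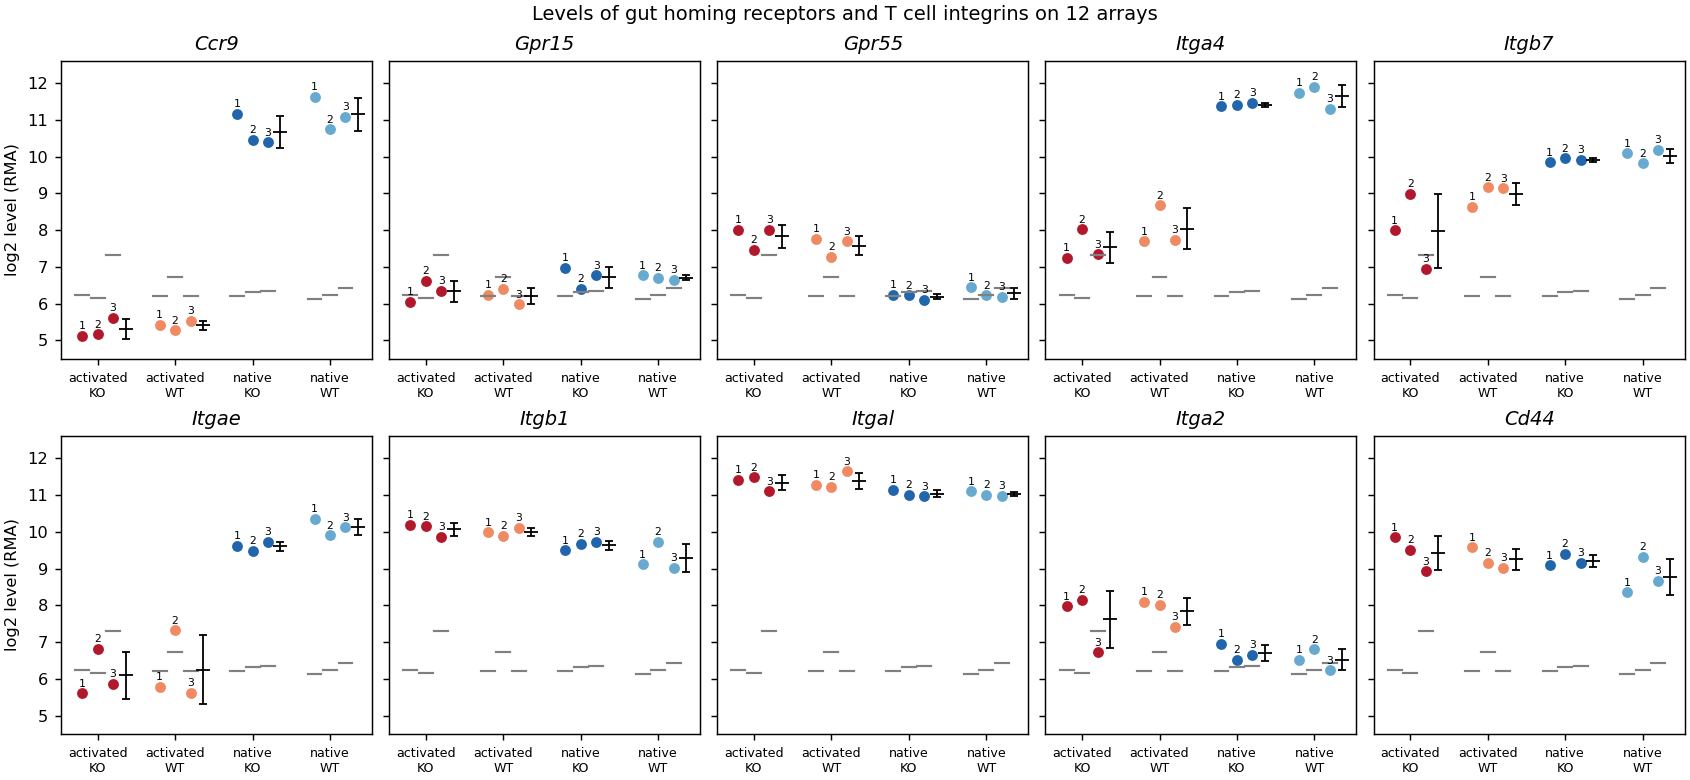
Log2 level (y axis) of the 10 genes on each array, in activated KO, activated WT, native KO and native WT cells (x axis); points carry the array number, black bars are the mean and SD of 3 arrays, and short grey lines mark each array's background level. Ccr9 lies between 10.39 and 11.62 on the 6 native arrays and between 5.12 and 5.62 on the 6 activated arrays.

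Ccr9 (Entrez gene 12769) had the lowest activated minus native difference of all 19938 genes in KO cells and also in WT cells. It was also the lowest in both when every level under an array's background was raised to it, an alternative chosen after seeing the data. Its level on arrays 1, 2 and 3 was 5.12, 5.17 and 5.62 in activated KO cells, against 11.17, 10.46 and 10.39 in native KO cells. WT cells had 5.43, 5.28 and 5.53 after activation, against 11.62, 10.74 and 11.08 in the native state. All 6 native arrays were bright and all 6 activated arrays lay at background, with no overlap between states. The activated level is therefore only a bound: Ccr9 was at least 17.2-fold lower in activated than in native KO cells and at least 27.1-fold lower in activated than in native WT cells, computed from the background level of each activated array. The measured differences were -5.37 ± 0.25 in KO (SE, n = 3 per group; limma, adjusted p = 2.09e-07) and -5.74 ± 0.25 in WT cells (adjusted p = 9.04e-08). In bulk RNA, fewer cells that carry a transcript and less transcript per cell cannot be told apart.

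As measured, the next lowest difference among the members was that of Itgae in WT cells. In KO cells it was that of Itga4 (Entrez gene 16401), the alpha4 chain. Itga4 stood at 7.24, 8.02 and 7.35 in activated KO cells, against 11.37, 11.40 and 11.46 in native KO cells. WT cells had 7.70, 8.68 and 7.74 after activation, against 11.74, 11.90 and 11.31 before. The states did not overlap, and the activated arrays all lay above background, by the smallest margin on KO array 3. The differences were -3.87 ± 0.27 in KO (14.6-fold; limma, adjusted p = 2.07e-06) and -3.61 ± 0.27 in WT cells (12.2-fold; adjusted p = 2.87e-06). Only 11 of 19938 genes had a lower difference, in KO and in WT cells alike.

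Itgae (Entrez gene 16407), the CD103 chain that anchors T cells in epithelium, stood at 5.60, 6.82 and 5.86 in activated KO cells and at 9.62, 9.49 and 9.73 in native KO cells. In WT cells the values were 5.79, 7.32 and 5.62 after activation and 10.35, 9.91 and 10.12 in the native state. Array 2 of each genotype was the single activated array above background. The differences were -3.52 ± 0.40 in KO (limma, adjusted p = 9.27e-05) and -3.88 ± 0.40 in WT cells (adjusted p = 3.83e-05), as measured. Since most activated levels were at background, the sizes are uncertain: with levels under background raised to it, the differences were -2.83 ± 0.30 in KO and -3.54 ± 0.30 in WT cells (adjusted p = 1.56e-06 and 6.72e-08).

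Itgb7 (Entrez gene 16421), the beta chain shared by the gut integrins, fell less. It stood at 7.997, 8.99 and 6.95 in activated KO cells, against 9.84, 9.96 and 9.92 in native KO cells. In WT cells it stood at 8.63, 9.16 and 9.14 after activation, against 10.09, 9.82 and 10.18 before. Activated KO arrays were spread widely (SD 1.02), and on array 3 the level lay under that array's background. Itgb7 fell in KO cells, by -1.93 ± 0.37 (3.81-fold; limma, adjusted p = 0.00347), and differed by -1.05 ± 0.37 in WT cells (adjusted p = 0.0708). Without activated KO array 3 the KO difference was -1.42, and the WT difference was called (adjusted p = 0.00389, as it was without activated KO array 2, at 0.00774). Under 6 of 22 alternatives the WT difference was called, array weights among them (limma, adjusted p = 0.00262). The difference between the 2 genotypes' changes was -0.88 ± 0.53 and was not called (adjusted p = 1.00), so the change is not shown to differ with genotype.

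Promoters of these genes are shown because Ccr9, Itga4 and Itgb7 fell in activated KO cells while Gpr55 rose. They are the 250 bases before 1 RefSeq start per gene (GRCm38.p6), with motif matches in capitals. The Gpr55 window lies inside the span of its gene (chr1:85933221-85991583), and so does the Itgb7 window (chr15:102215994-102233405). Neither is therefore at the outer start of its gene, and other starts were not searched.
Ccr9, chr9:123766961-123767210, plus strand: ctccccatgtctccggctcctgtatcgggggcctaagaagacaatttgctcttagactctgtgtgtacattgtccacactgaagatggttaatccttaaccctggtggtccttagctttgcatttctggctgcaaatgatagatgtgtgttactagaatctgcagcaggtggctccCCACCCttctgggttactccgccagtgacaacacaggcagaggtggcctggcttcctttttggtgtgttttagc
Itga4, chr2:79255176-79255425, plus strand: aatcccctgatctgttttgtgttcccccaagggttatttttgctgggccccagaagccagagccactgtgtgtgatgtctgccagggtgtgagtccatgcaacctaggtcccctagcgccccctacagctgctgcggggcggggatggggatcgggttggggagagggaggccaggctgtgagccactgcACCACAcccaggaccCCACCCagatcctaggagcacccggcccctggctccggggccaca
Itgb7, chr15:102231936-102232185, minus strand: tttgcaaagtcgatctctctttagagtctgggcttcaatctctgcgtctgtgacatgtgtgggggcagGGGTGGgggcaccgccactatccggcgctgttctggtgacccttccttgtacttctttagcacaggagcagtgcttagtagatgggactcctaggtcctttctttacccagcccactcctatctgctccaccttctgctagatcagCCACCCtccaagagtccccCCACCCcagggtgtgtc
Gpr55, chr1:85961056-85961305, minus strand: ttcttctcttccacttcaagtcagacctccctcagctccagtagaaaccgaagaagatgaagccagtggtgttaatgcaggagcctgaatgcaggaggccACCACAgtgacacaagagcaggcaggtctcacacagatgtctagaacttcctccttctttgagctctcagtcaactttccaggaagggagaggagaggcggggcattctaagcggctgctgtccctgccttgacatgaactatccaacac
Both strands were searched for 4 motifs: the KLF motif CCACCC, the RUNX motif TGTGGT, the nuclear receptor motif AGGTCA that retinoic acid receptors also read, and the AP-1 motif TGANTCA. Windows were given for 8 of the 10 members (not Itgae or Itgal), and no match overlapped another in them. The KLF letters stood in the windows of Ccr9 (1 match), Itga4 (1), Itgb7 (3) and Itga2 (1) and in 27.7% of 27025 promoters. The RUNX letters stood in those of Itga4 (1), Gpr15 (2) and Gpr55 (1), against 14.2% of promoters. AP-1 letters stood in that of Gpr15 (6.9% of promoters) and the nuclear receptor letters in none of the 8 (13.8%). A match is a run of letters and does not show binding.

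Among the other G protein-coupled receptors, Gpr55 rose and Gpr15 was not called. Gpr55 (Entrez gene 227326), a lysophospholipid receptor found on intestinal lymphocytes, stood at 8.01, 7.47 and 8.02 in activated KO cells, against 6.24, 6.23 and 6.10 in native KO cells. WT cells had 7.76, 7.28 and 7.70 after activation, against 6.45, 6.22 and 6.18. Every activated array lay above every native array, and native levels lay near background, above it on 1 of 3 arrays in each genotype. The rise was 1.64 ± 0.17 in KO (3.12-fold; limma, adjusted p = 4.45e-05) and 1.30 ± 0.17 in WT cells (2.46-fold; adjusted p = 0.000232) as measured. With levels under background raised to it, the rise was 2.90-fold in KO and 2.32-fold in WT cells. Gpr15 (Entrez gene 71223), the colon homing receptor, ran from 5.99 to 6.97 over all 12 arrays, above background on all 6 native arrays and on 1 of 3 activated arrays in each genotype. It differed by -0.38 ± 0.18 in KO (adjusted p = 0.178) and -0.50 ± 0.18 in WT cells (adjusted p = 0.069), and by 0.0023 and -0.31 with levels under background raised to it. The WT value was called without activated KO array 2 (0.0477), with the same difference, and under 3 of 22 alternatives in all.

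Itgb1 (Entrez gene 16412), the beta chain of receptors for matrix and VCAM, differed in the direction opposite to Itgb7. In neither genotype were both genes called. Itgb1 stood at 10.19, 10.14 and 9.86 in activated KO cells, against 9.50, 9.68 and 9.72 in native KO cells. WT cells had 9.99, 9.90 and 10.11 after activation, against 9.12, 9.73 and 9.02. Activated arrays lay above native arrays in each genotype. It rose in WT cells by 0.71 ± 0.17 (1.64-fold; limma, adjusted p = 0.0122) and differed by 0.43 ± 0.17 in KO cells (adjusted p = 0.112). The WT call was lost without activated WT array 3 (0.0516), native WT array 1 (0.0579) or native WT array 3 (0.0584). A call in KO cells appeared without activated KO array 3 (0.0495) or native WT array 2 (0.0362).

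Since alpha4 joins either beta chain, the log2 difference Itgb1 minus Itgb7 was taken within each array. Its size also depends on the probes of the 2 genes, so only its change is read. It was 2.20, 1.16 and 2.91 on activated KO arrays, against -0.345, -0.28 and -0.19 on native KO arrays. On WT arrays it was 1.36, 0.73 and 0.97 after activation, against -0.97, -0.09 and -1.16. Every activated array lay above every native array. The mean was 1.55 on 6 activated and -0.51 on 6 native arrays, a change of 2.06 log2 units towards Itgb1 (exact permutation test, two-sided, p = 0.00217, the smallest that 6 against 6 arrays can give). Itgb1 alone and Itgb7 alone already separated all activated from all native arrays, in opposite directions. The p-value therefore follows from the levels given above and adds no separate support, and it pools KO with WT arrays. On activated KO array 3 Itgb7 lay under background, and with its level raised to background the value there was 2.54 and the pooled change 2.001. The change was 2.36 in KO arrays (2.24 with that level raised) and 1.76 in WT arrays, where 3 against 3 cannot go below 0.1. Without any single array the pooled change ran from 1.79 to 2.23.

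**Figure D2:**
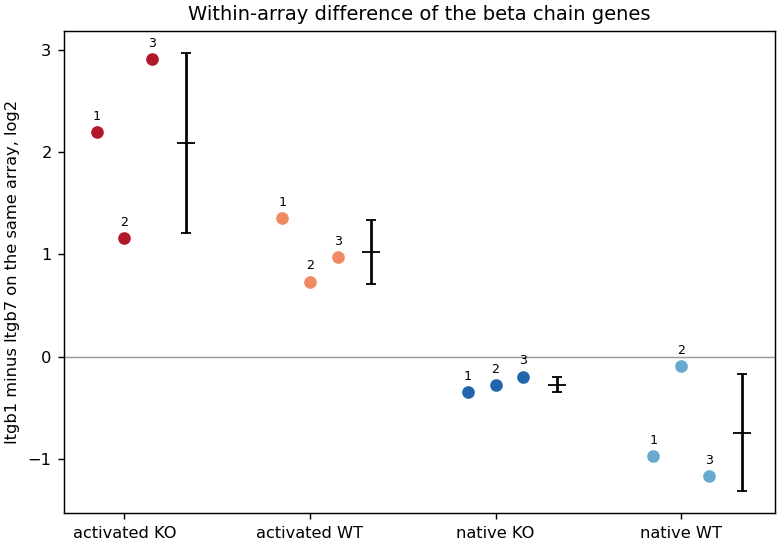
Log2 difference Itgb1 minus Itgb7 on the same array (y axis) in the 4 groups (x axis); points are arrays with their numbers, bars the mean and SD. The 6 activated arrays lie between 0.73 and 2.91, the 6 native arrays between -1.16 and -0.09.

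Itga2 (Entrez gene 16398), the collagen-binding alpha2 chain and a marker of natural killer (NK) cells, stood at 7.97, 8.14 and 6.72 in activated KO cells, against 6.95, 6.51 and 6.65 in native KO cells. In WT cells it stood at 8.09, 8.01 and 7.42 after activation, against 6.52, 6.80 and 6.23. Activated KO array 3 overlapped the native range and lay under its own background. Itga2 rose in WT cells by 1.32 ± 0.33 (2.50-fold; limma, adjusted p = 0.0128) and differed by 0.91 ± 0.33 in KO cells (adjusted p = 0.073). In KO cells it was called under 6 of 22 alternatives. Without activated KO array 3 the KO difference was 1.35 (limma, adjusted p = 0.000889). With levels under background raised to it, the KO difference was 1.11 (adjusted p = 0.00537). The WT call was lost without activated WT array 1 (0.0529) or native WT array 3 (0.0554). The mean of 6 NK cell markers ran from 6.89 to 7.69 in activated KO and 6.44 to 7.30 in activated WT cells, against 7.24 to 8.15 in native KO and 6.84 to 7.40 in native WT cells. Its genes did not move alike: Klre1 was higher on activated arrays (7.34 to 7.64 in activated KO and 7.02 to 7.21 in activated WT cells, against 6.53 to 6.98 in native KO and 6.13 to 6.37 in native WT cells), whereas Ncr1 and Klra8 were at background on all activated arrays. The part of NK cells in the Itga2 values was not tested.

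Itgal (Entrez gene 16408), the alpha chain of the leukocyte integrin that binds ICAM, was bright on every array. It stood at 11.41, 11.48 and 11.10 in activated KO cells, against 11.15, 11.01 and 10.97 in native KO cells. WT cells had 11.28, 11.22 and 11.64, against 11.10, 11.01 and 10.98. The differences were small, at 0.29 ± 0.14 in KO (limma, adjusted p = 0.185) and 0.35 ± 0.14 in WT cells (adjusted p = 0.0996). Without activated KO array 3 both were called, at 0.40 (0.038) in KO and 0.35 (0.0371) in WT cells.

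Cd44 (Entrez gene 12505), the hyaluronan receptor of activated and memory T cells, overlapped between states. It stood at 9.85, 9.51 and 8.93 in activated KO cells, against 9.09, 9.40 and 9.15 in native KO cells. WT cells had 9.57, 9.16 and 9.03, against 8.36, 9.31 and 8.66. The differences of 0.21 ± 0.27 (95% interval -0.37 to 0.80) in KO and 0.48 ± 0.27 (-0.11 to 1.06) in WT cells were not called (limma, adjusted p = 0.696 and 0.274).

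**Figure D3:**
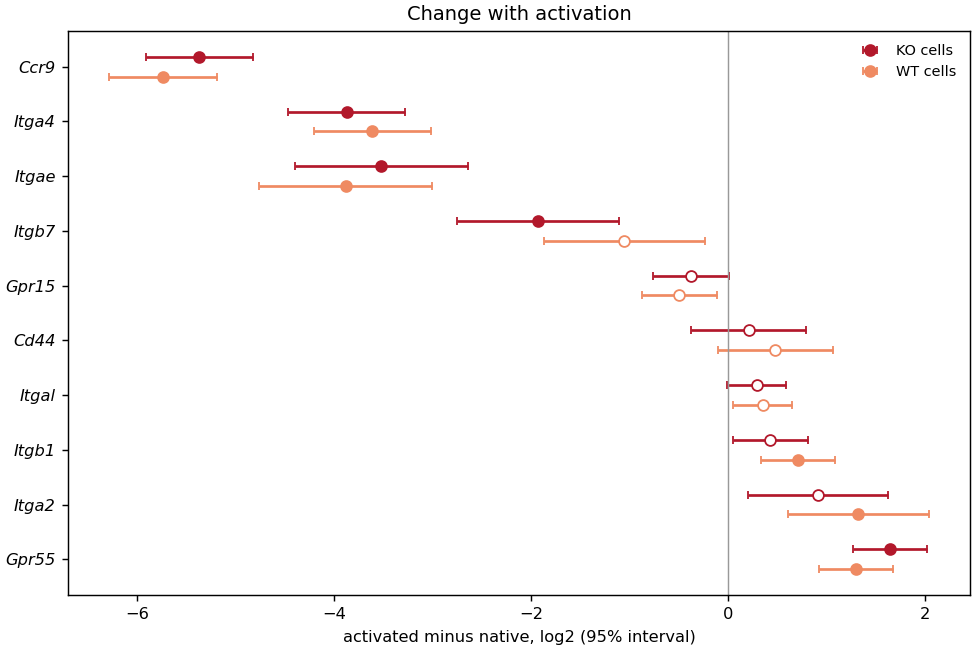
Activated minus native log2 difference (x axis) of each gene (y axis), KO above WT; points are limma estimates, lines 95% intervals, filled points adjusted p under 0.05. Ccr9, Itga4 and Itgae lie below -3.5 in both genotypes, and Gpr55 lies above 1.2.

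**Figure D4:**
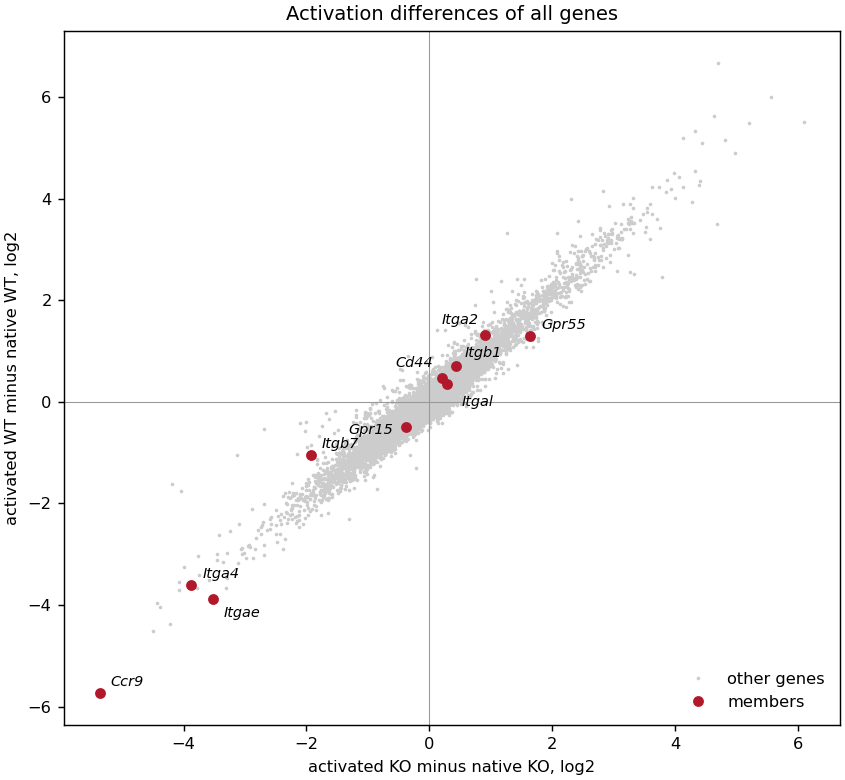
Activated minus native log2 difference of all 19938 genes in KO (x axis) and WT cells (y axis), with the 10 members in red. Ccr9 is the lowest point on both axes.

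On activated arrays numbered 2, Itga4, Itgae, Itgb7 and Gpr15 were the highest and Gpr55 the lowest of their group in both genotypes. Across all genes the deviations of these arrays from their group means were not alike (r = -0.02). The CD8 marker mean was also highest there (11.84 in KO and 11.89 in WT, against 10.68 to 11.61 on the other activated arrays) and the NK marker mean lowest (6.89 and 6.44, against 7.06 to 7.69). The part of cell composition in these differences was not tested. Among 12 macrophage and dendritic cell markers, 11 lay at background on all activated arrays, Csf1r, Cd14, Adgre1 and C1qa among them, and Cd68 was the exception.

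KO and WT cells were set against each other in each state. No member was called, and no gene of the whole table was: 0% of 19938 genes in activated and 0% in native cells, and 0% for the interaction of genotype and state. By unadjusted p under 0.05, limma gave 87 genes (0.436%) in activated cells, 131 (0.657%) in native cells and 86 (0.431%) for the interaction. With no difference at all, a fraction of genes near 0.05 would pass. This fit without pairing may therefore be conservative here, and 0 calls do not show that KO and WT cells were equal. The 95% intervals leave room for sizeable differences in single members.

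Between native arrays of the same number, Ccr9 and Itgae lay lower in KO than in WT cells at each number, and Cd44 lay higher. The share of all genes keeping 1 direction at every number was not counted, so this is given as values only. Ccr9 differed by -0.45, -0.28 and -0.70 between native arrays 1, 2 and 3, and by -0.48 ± 0.25 in the fit (95% interval -1.02 to 0.07; limma, adjusted p = 1.00). Itgae differed by -0.73, -0.42 and -0.39, and by -0.51 ± 0.40 in the fit (-1.39 to 0.37; adjusted p = 1.00). The 3 KO arrays lay below the 3 WT arrays for Itgae, 1 of 10 members, as they did for 4.92% of genes (7.04% did not overlap in either direction and 2.12% lay higher). Every other member overlapped. In activated cells 0 of 10 members kept apart, beside 1.75% of genes (0.858% higher, 0.888% lower). In a fit of the 6 native arrays with the number as a block, chosen after seeing the data, which called 14 genes, the errors fell to 0.0937 for Ccr9 and 0.0910 for Itgae, and neither was called (adjusted p = 0.251 and 0.178). Without native WT array 1 the Ccr9 difference was -0.24.

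No other member was called between native KO and WT cells. Itgb1 differed by 0.34 ± 0.17 (-0.03 to 0.72) and Cd44 by 0.44 ± 0.27 (-0.14 to 1.02), with KO above WT at 2 of 3 numbers for Itgb1 and at 3 of 3 for Cd44. Single arrays moved both: the Itgb1 value was 0.21 without native WT array 3 and 0.56 without native WT array 2, and the Cd44 value 0.23 without native WT array 1 and 0.71 without native WT array 2. Itga4 differed by -0.24 ± 0.27, Itgb7 by -0.12 ± 0.37, Itga2 by 0.19 ± 0.33, Gpr55 by -0.09 ± 0.17, Gpr15 by 0.01 ± 0.18 and Itgal by 0.01 ± 0.14. Markers of other cells moved beside these values: the mean of 12 neutrophil markers ran from 5.86 to 8.03 in native KO and from 5.43 to 6.52 in native WT cells, and 1 and 3 of them lay at background on every array of the group. Their part in the differences was not tested.

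In activated cells the value farthest from 0 belonged to Itgb7, at -1.001 ± 0.37 (95% interval -1.82 to -0.18; limma, adjusted p = 1.00). Its levels ran from 6.95 on array 3 to 8.99 in KO cells and from 8.63 to 9.16 in WT cells, so the groups overlapped. The difference was -0.49 without KO array 3 and -1.50 without KO array 2. The CD8 marker mean on KO array 3 was the lowest of the series, and its part was not tested. Itga4 differed by -0.50 ± 0.27 (-1.09 to 0.09), with overlapping groups. Single arrays numbered 2 moved it, to -0.75 when that of KO cells was dropped and to -0.18 when that of WT cells was. Gpr55 differed by 0.25 ± 0.17 (-0.12 to 0.62), and its groups overlapped too. Dropping the same arrays gave 0.43 and 0.10. Between arrays of the same number, KO lay below WT at each number for Itga4 (-0.46, -0.65 and -0.40) and Itgb7 (-0.64, -0.18 and -2.19). Gpr55 lay above at each (0.25, 0.18 and 0.32). The share of all genes keeping 1 direction at every number was not counted. With the number shared in the sample labels as a block, the errors were 0.15 for Itga4, 0.33 for Itgb7 and 0.10 for Gpr55. No member was called there. The other 7 members differed by between -0.23 and 0.17. No member's change with activation was called different between genotypes (interaction, adjusted p = 1.00 for each), with differences between -0.88 for Itgb7 and 0.37 for Ccr9.

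**Figure D5:**
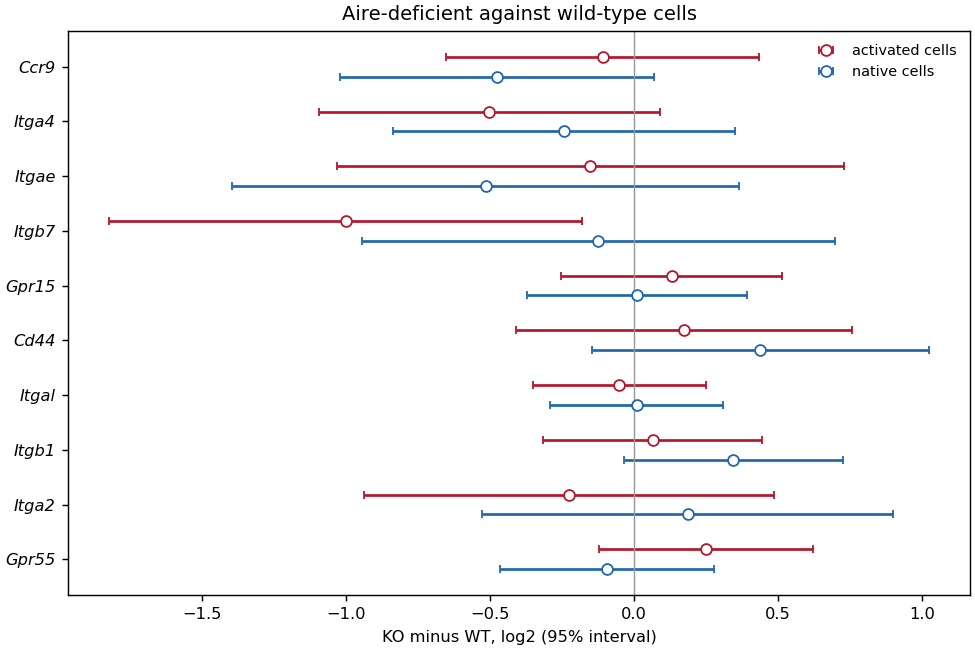
KO minus WT log2 difference (x axis) of each gene (y axis) in activated (above) and native cells (below), with 95% intervals from limma; open points were not called. Itgb7 in activated cells, at -1.001, lies farthest from 0.

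Genes of the surrounding pathways gave the setting of these changes. Of 22 other integrin chains measured, 13 lay above background on some array; 4 rose and 4 fell in KO cells, and 5 rose and 2 fell in WT cells, read against 20.1% and 20.6% of all genes called in either direction. Itgb3, the beta chain of the vitronectin receptor, rose by 2.09 ± 0.50 in KO and 2.14 ± 0.50 in WT cells (limma, adjusted p = 0.0113 and 0.00967), and its partner Itgav rose by 0.95 ± 0.20 and 0.64 ± 0.20. Itga7, a laminin receptor chain, rose by at least 0.88 in KO and at least 1.08 in WT cells on the log2 scale, with native levels at background, and Itgb5 by at least 0.36 in WT cells. Itga6, another laminin receptor chain, fell in both genotypes (-1.57 ± 0.32 in KO and -1.33 ± 0.32 in WT cells). Itga2b, a platelet chain, was called lower in both genotypes, with activated levels at background. Itgb2, the partner of Itgal, differed by 0.09 ± 0.17 and 0.23 ± 0.17 and was not called.

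Genes that switch integrins on and tie them to actin formed a second list. Of 26 measured, 1 rose and 10 fell in KO cells (8.72% and 11.4% of all genes did), and 3 rose and 8 fell in WT cells (9.72% and 10.9% of all genes). Actn1, an actin crosslinker, fell (-3.45 ± 0.37 in KO and -2.99 ± 0.37 in WT cells). Rasgrp2, which activates the integrin switch Rap1, fell too (-1.83 ± 0.30 in KO and -1.23 ± 0.30 in WT cells), as did Cyth1, a regulator of leukocyte integrin adhesion (-1.47 ± 0.30 and -1.19 ± 0.30). Actn4 rose by 0.50 ± 0.11 and 0.38 ± 0.11, and Vcl (vinculin) and Parvg rose in WT cells, by 0.95 ± 0.22 and 0.57 ± 0.15. The list's median difference was -0.38 in KO and -0.35 in WT cells.

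Factors known to set tissue residency and responses to TGF-beta made up another list. Of 21 measured, 2 rose and 12 fell in KO cells and 3 rose and 12 fell in WT cells, with medians of -0.84 and -0.85; of all genes, 8.72% rose and 11.4% fell in KO and 9.72% rose and 10.9% fell in WT cells. Klf2, which keeps T cells in circulation, fell (-4.07 ± 0.36 in KO and -3.55 ± 0.36 in WT cells). So did Klf3 (-3.75 ± 0.46 and -3.42 ± 0.46) and the egress receptor S1pr1 (-3.99 ± 0.82 and -3.25 ± 0.82). Prdm1, the factor Blimp, rose by 1.39 ± 0.33 and 1.92 ± 0.33, and Bhlhe40 by 1.55 ± 0.42 and 1.97 ± 0.42. Runx3, which acts at Itgae, differed by 0.05 ± 0.21 and 0.29 ± 0.21 and was not called, and Eomes rose in WT cells by 0.52 ± 0.17.

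The retinoic acid list had 16 genes measured, 7 of them above background on some array, with 0 rising and 3 falling in each genotype, where 11.4% of all genes fell in KO and 10.9% in WT cells. Rarg, a retinoic acid receptor, fell (-1.44 ± 0.25 in KO and -1.40 ± 0.25 in WT cells), as did Rdh10, an enzyme of retinal synthesis (-1.05 ± 0.14 and -1.09 ± 0.14). Aldh1a1, the third, had activated levels at background that left no bound. Rara differed by -0.26 ± 0.25 and -0.12 ± 0.25 and was not called. Of 9 genes for ligands of the 10 members, 1 rose and 3 fell in KO cells and 0 rose and 2 fell in WT cells, to be read against the same shares of falls and 8.72% and 9.72% of rises. Icam2 and Icam1, ligands of the Itgal integrin, fell in both genotypes: Icam2 by -1.49 ± 0.26 in KO and -1.43 ± 0.26 in WT cells, and Icam1 by -0.89 ± 0.20 in each. Fn1 (fibronectin) was called lower in KO cells, with an activated level at background. Cdh1, the E-cadherin that CD103 binds, rose in activated KO cells to at least 2.05-fold of a native level at background, and its WT difference of 1.12 ± 0.39 was not called (adjusted p = 0.0664). In KO minus WT comparisons 0 genes of these lists were called.

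The genes most like a member over the 12 arrays were found by the root mean square difference of gene-centred log2 values. Itgae and Itga4 were near neighbours of each other, at 0.30. Nearest to Itgae was Ifngr2, an interferon gamma receptor chain, at 0.26, and Il6ra, the interleukin 6 receptor, was second to Itga4 at 0.32. Rasgrp2 (0.25) and Trib2 (0.27) lay nearest to Itgb7. Nearest to Ccr9 were Dtx1 (0.66) and Rgs2 (0.78). This measure grows with the size of a gene's changes, so its values are not compared between members. Group means spanned 5.84 log2 units for Ccr9, against 1.64 for Gpr55 and 1.32 for Itga2. Trim16 and Ccne2 (both 0.15) lay nearest to Gpr55, and Cdc25b (0.16) and Egln1 (0.19) to Itga2.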

How the data were processed

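RNA of 12 samples was measured on 1 array each. The deposited log2 values, 1 per transcript cluster, came from the authors, who used RMA in Partek according to the submitters' processing notes, with no version or option stated. RMA compresses differences near background. Of 35556 transcript clusters, 21789 had 1 gene symbol in the platform annotation (1621 several, 12146 none), and 21698 of those were matched by Entrez ID to the GRCm38.p6 gene table. The brightest cluster per gene was kept (19938 genes). Groups came from sample titles.

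Group means over all 12 arrays were fitted with limma 3.58.1 in R 4.3.3 (lmFit, eBayes), tested on simulated data, and p-values adjusted by Benjamini-Hochberg. No dim genes were removed. Bounds replaced levels at background by the array's background level. The exact permutation test used scipy 1.17.1. Members and lists were chosen with earlier results of these data known. Named list genes were the called genes with the largest differences, up to 3 per direction and contrast; Itgb2, Runx3, Rara, Itgax and Ccl25 were chosen after their values were seen. In both states the sample labels give same-numbered KO and WT arrays a shared number. Same-numbered native KO and WT arrays deviated together across genes (r = 0.58, 0.40 and 0.16), so numbers were taken to pair them. In activated arrays r was 0.69, -0.02 and -0.01, and pairing was not assumed there, a choice made from these correlations. Alternatives covered scaling, filtering, cluster choice, variance model, array weights (gene-by-gene estimates, since the REML estimates did not converge), samples fitted, pairing, levels raised to background (chosen after seeing the data) and each array left out. Promoters are from RefSeq (GRCm38.p6).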

Additional observations from a re-analysis of the deposited data

How the results depend on the processing

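Activation differences of Ccr9, Itga4, Itgae and Gpr55 in both genotypes, and of Itgb7 in KO cells, kept direction and call under all 22 alternatives run for each. The Itgb1 minus Itgb7 change ran from 1.79 to 2.23 without single arrays. With array weights 6932 genes were called in activated against native KO cells and 6930 in WT cells, with 8 members in KO and 9 in WT cells. Without single arrays the gene counts ran from 2823 to 4891 in KO and from 2805 to 5875 in WT cells. The member counts then ran from 5 to 8 in KO and 4 to 8 in WT cells. With only the compared groups fitted, 2720 and 5172 genes were called, and with levels under background raised to it, chosen after seeing the data, 2579 and 2613.

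For native KO against WT, 1 gene was called with dim genes removed and 1 with trended robust variances, 2 with array weights, 14 with the replicate block on native arrays alone, and 0 to 10 without single arrays (10 without native KO array 2). With the replicate block by title number, Itga2 in KO cells was also called (adjusted p = 0.0207) and no other member call changed.

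Small differences that were not called changed sign. Native KO minus WT for Gpr15 was -0.00192 after quantile normalization, -0.0141 after median centring, -0.0878 with array weights and -0.12 to 0.17 without single arrays; for Itgal it was -0.0144 after centring, -0.0101 with weights and -0.043 to 0.047 without single arrays. Activated KO minus WT with weights was 0.0146 for Itgae and 0.210 for Itga2. Without single arrays it ran from -0.51 to 0.39 for Itgae, -0.0062 to 0.28 for Gpr15, -0.13 to 0.080 for Itgal, -0.49 to 0.22 for Itga2 and -0.036 to 0.42 for Cd44. With levels under background raised to it, activated KO minus WT was 0.178 for Ccr9 and 0.198 for Itgae, and activated minus native KO was 0.0023 for Gpr15. The interaction with weights was 0.125 for Itga2 and 0.0113 for Cd44, and without single arrays it ran from -0.50 to 0.059 for Itga4, -0.035 to 0.26 for Gpr15, -0.14 to 0.070 for Itgal and -0.68 to 0.031 for Itga2. The causes were not tested. Signal over background limits Gpr15 throughout, Ccr9 and Itgae after activation and Gpr55 in native cells.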

Other observations

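Integrin chains of myeloid cells were measured beside the T cell chains. Itgam, the CD11b chain of granulocytes and macrophages, lay at background on all activated arrays, with means of 5.60 in activated KO and 5.499 in activated WT cells, against 6.52 in native KO and 6.05 in native WT cells. It was above background on 2 of 3 native KO and 1 of 3 native WT arrays, and was called lower in activated KO cells (limma, adjusted p = 0.00489) with no bound on the size. Itgax, the CD11c chain of dendritic and some T cells, averaged 6.26 in activated KO and 6.10 in activated WT cells, against 7.06 in native KO and 6.81 in native WT cells, and was not called (adjusted p = 0.0887 in KO and 0.133 in WT cells). Ccl25, the ligand of CCR9, averaged 6.89 in activated KO, 6.97 in activated WT, 7.31 in native KO and 7.36 in native WT cells, above background on every native array, 3 of 3 activated WT and 2 of 3 activated KO arrays.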
